A study of Mus musculus with 6 samples.

Results

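The hepatic bile acid and sterol transporters described here were 10 genes chosen by name: Abcb11, Abcb4, Abcg5, Abcg8 and Abcc2, whose products sit in the canalicular membrane of the hepatocyte, Abcc3, an exporter of the sinusoidal membrane, and Slc10a1, Slco1a1, Slco1a4 and Slco1b2, which take up bile acids and other organic anions from the blood. All 10 were measured, on 14 probes, out of 22911 genes and 56605 probes. Male mice aged 12 weeks ate either regular chow alone (control, 100% regular food, n = 3) or chow of 75% regular food and 25% soy bean powder (soy, n = 3) for 28 days. RNA from the right hepatic lobe was labelled with Cy3 and read on 1-colour Agilent mouse gene expression arrays, 1 for each mouse. The strain is not given in the sources used here, and no engineered allele or other agent is named for either group. Of the 59305 spots of an array, 37010, 36366 and 38163 were well above background in the control mice and 31308, 31988 and 32498 in the soy mice. Control 1, control 2 and soy 1 shared slide 1, soy 2 was alone on slide 2, and control 3 and soy 3 shared slide 3. Scan order followed the slides, so slide and scan cannot be told apart.

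Bile forms at the canalicular membrane, where ATP-driven pumps move bile salts, phospholipid, cholesterol and conjugated organic anions out of the hepatocyte. Bile salts return from the gut in portal blood and are taken up again across the sinusoidal membrane by a sodium-coupled carrier and by organic anion transporting polypeptides. Nuclear receptors for bile acids, oxysterols and xenobiotics (FXR, LXR, CAR and PXR) are known regulators of many of these genes.

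Signals below are log2 values of the background-corrected, quantile-normalized median intensity. Changes are soy minus control on that scale, with the standard error (SE) and the limma p-value, adjusted by Benjamini-Hochberg across the whole array. To pass, a probe needed an adjusted p below 0.05 together with a fold change over 1.5 or below 0.66. A transporter with several probes is described by its brighter one first. All 14 probes were well above background on all 6 arrays and none was saturated, but 3 arrays per group limited the precision of every value. Levels of different probes are not compared, since probes differ in brightness for reasons other than RNA amount.

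Among the 10 transporters, Abcc3 rose with soy and the other 9 did not pass. Of all genes, 0.532% passed on at least 1 probe (122 of 22911), and of all probes, 0.35% passed, against 1 of the 14 transporter probes. The signals of soy and control livers did not overlap for 4 of the 10 transporters, which were Abcc3, Abcb4 and Abcc2 (higher in soy) and Abcg8 (lower), against 20.4% of all genes. The same 4 genes had an unadjusted p under 0.05, against 14.2% of all genes. In all, 5 transporters had a higher and 5 a lower mean in soy, and the median change was 0.01, against -0.01 over all genes. The median size of the change, regardless of sign, was 0.24 for the transporters and 0.13 over all genes (0.16 over the 15123 genes that were well above background throughout at least 1 diet). In whole-liver RNA, fewer cells of a type and less RNA per cell cannot be told apart.

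**Figure D1:**
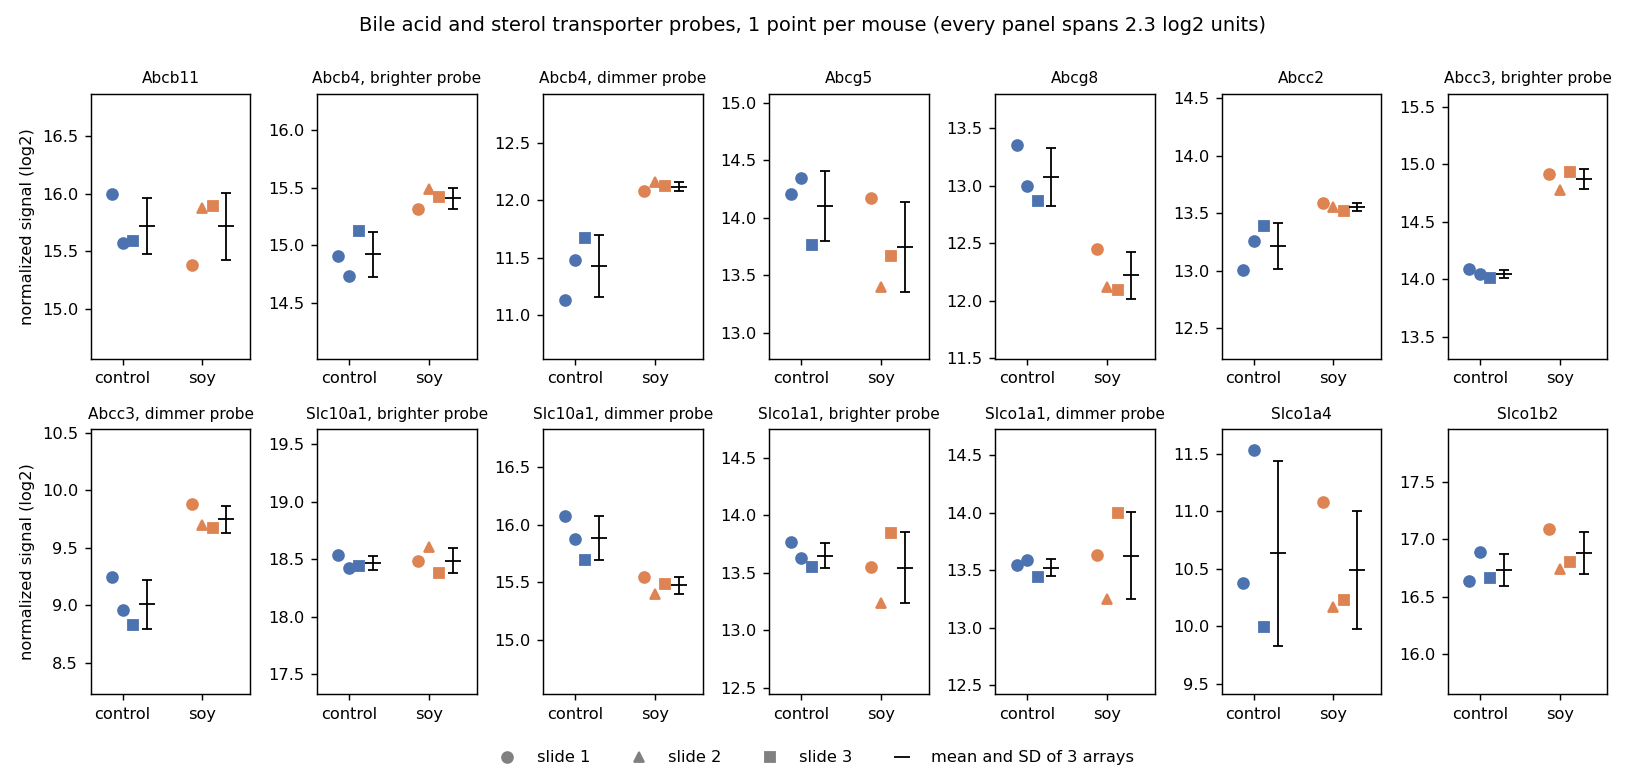
Log2 normalized signal (vertical axis, each panel spanning the same number of log2 units but starting at its own level) of the 14 transporter probes in control (blue) and soy (orange) livers, 1 point per mouse, with the marker shape giving the slide and bars the mean and SD of 3 arrays. On the brighter or sole probe, soy and control points are apart for Abcc3 (control 14.01 to 14.08, soy 14.78 to 14.93), Abcb4, Abcc2 and Abcg8, and overlap for the other 6 genes.

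Abcb11 encodes the bile salt export pump, the main route of bile salts into bile. Its log2 signal was 15.9995, 15.57 and 15.59 in control and 15.38, 15.88 and 15.90 in soy. Control 1 and soy 1, on the same slide, were the highest and the lowest, and the groups overlapped. The group means were 15.72 ± 0.24 and 15.72 ± 0.29 (SD, n = 3 each), with a change of 0.00 between the 95% limits of -0.43 and 0.42 (SE 0.18, adjusted p = 0.998). Within slide 1 the change was -0.41 and within slide 3 it was 0.31, so the pooled value averaged differences of opposite sign.

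The promoter of Abcb11 is shown since the gene is a classic target of FXR and its window holds the AGGTCA hexamer that nuclear receptors of this family read. The sequence is the RefSeq window of GRCm38.p6 from 250 bases before the gene start to 50 after it, at chr2:69342567-69342866 (minus strand), printed 5′ to 3′ with the hexamer, here on the opposite strand, in capitals.
Abcb11: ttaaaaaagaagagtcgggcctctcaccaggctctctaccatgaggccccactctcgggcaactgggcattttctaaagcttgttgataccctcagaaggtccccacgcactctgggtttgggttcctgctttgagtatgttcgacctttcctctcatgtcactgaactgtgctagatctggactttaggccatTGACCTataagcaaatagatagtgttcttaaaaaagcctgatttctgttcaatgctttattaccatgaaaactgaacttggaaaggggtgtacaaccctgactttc
AGGTCA, searched on both strands, was present in 5 of 11 such windows (45.5%), from the 9 transporters that had one by symbol, namely those of Abcb11, Abcc2, Slc10a1, Slco1a1 and Slco1b2, and in 16.3% of all 32817 windows of 300 bases. A match describes the letters of the window.

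Abcb4 encodes the phospholipid floppase that supplies phosphatidylcholine to bile. Its brighter probe gave 14.90, 14.74 and 15.13 in the control livers and 15.31, 15.49 and 15.42 in the soy livers. All soy values lay above all control values, by at least 0.19. The means were 14.92 ± 0.19 and 15.41 ± 0.089 (SD, n = 3 each), a 1.40-fold difference that did not pass (change 0.49, SE 0.13, adjusted p = 0.184). The dimmer probe of the same transcript gave 11.13, 11.48 and 11.67 in control and 12.08, 12.16 and 12.12 in soy. These groups were apart as well, and the difference of 1.61-fold did not pass either (change 0.69, SE 0.14, adjusted p = 0.119). On both slides that held both diets the brighter probe was higher in soy, by 0.49 on slide 1 and 0.30 on slide 3. Of the 18 alternatives that keep probes apart, the dimmer Abcb4 probe passed in 1, with the processed signal of the scanner software (change 0.72, adjusted p = 0.0225), and the brighter probe in 0.

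Abcg5 and Abcg8 encode the half-transporters that join into the canalicular sterol exporter, which carries cholesterol and plant sterols. Abcg5 had log2 signals of 14.21, 14.35 and 13.76 in control and 14.17, 13.40 and 13.67 in soy. Soy 1 lay among the control values, so the groups overlapped. The change was -0.36 (SE 0.23, adjusted p = 0.606), and it was -0.10 within slide 1 and -0.09 within slide 3. The size of this change rested on single arrays, being -0.57 without soy 1, -0.18 without soy 2 and -0.24 without control 2. Abcg8 had log2 signals of 13.35, 13.00 and 12.87 in control and 12.45, 12.12 and 12.09 in soy. Every soy value was below every control value, by at least 0.42. The group means of 13.07 ± 0.25 and 12.22 ± 0.20 (SD, n = 3 each) differed by 1.81-fold and did not pass (change -0.86, SE 0.16, adjusted p = 0.0907). The difference was similar in size within slide 1 (-0.73) and slide 3 (-0.78). Abcg8 passed in 2 of the alternatives, the processed signal (adjusted p = 0.0276) and the fit restricted to probes well above background (adjusted p = 0.0484), and the adjusted p lay between 0.0276 and 0.257 over all 19.

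The Abcg8 signal minus the Abcg5 signal on the same array, which cancels differences common to both probes, was -0.86, -1.35 and -0.89 in control and -1.72, -1.29 and -1.58 in soy. Soy 2 lay inside the control range. The shift between diets was -0.50 (exact two-sided permutation test over arrays, p = 0.2). With 3 against 3 the smallest p is 0.1, so this test could not reach 0.05.

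Abcg5 and Abcg8 are neighbours on chromosome 17 and are read away from each other, from starts 110 bases apart for 1 of the 2 Abcg8 windows. The other Abcg8 window, at chr17:84676052-84676351 (plus strand), lies on the far side of the Abcg5 start and is not shown. The first of these Abcg8 windows is shown since the genes share most of it: 209 of its 300 bases, in capitals, also lie in the Abcg5 window on the opposite strand. It is the RefSeq sequence of GRCm38.p6 at chr17:84682871-84683170 (plus strand), 5′ to 3′.
Abcg8: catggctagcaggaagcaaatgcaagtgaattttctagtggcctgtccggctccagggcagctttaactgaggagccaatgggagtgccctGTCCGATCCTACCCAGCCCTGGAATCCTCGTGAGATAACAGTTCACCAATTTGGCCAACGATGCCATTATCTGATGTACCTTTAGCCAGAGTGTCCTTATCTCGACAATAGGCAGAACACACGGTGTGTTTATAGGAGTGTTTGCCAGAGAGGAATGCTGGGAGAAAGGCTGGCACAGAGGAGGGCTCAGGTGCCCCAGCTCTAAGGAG
Neither Abcg8 window nor that of Abcg5 held AGGTCA.

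Abcc2 encodes MRP2, which exports bilirubin glucuronides and glutathione conjugates into bile. It gave 13.00, 13.26 and 13.39 in control and 13.59, 13.56 and 13.52 in soy. The soy arrays were close together and all above the control arrays, by at least 0.13. The means were 13.22 ± 0.20 and 13.56 ± 0.035 (SD, n = 3 each), a 1.27-fold difference that did not pass (change 0.34, SE 0.12, adjusted p = 0.337). It was 0.46 within slide 1 and 0.13 within slide 3. The 5 canalicular exporters thus ran in both directions, with changes from -0.86 (Abcg8) to 0.49 (Abcb4) and a median of 0.00.

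Abcc3 encodes MRP3, an exporter of glucuronides and bile acids into the blood. Its brighter probe gave 14.08, 14.04 and 14.01 in the control livers and 14.91, 14.78 and 14.93 in the soy livers. The 3 arrays of each diet lay close together, and the lowest soy value was 0.69 above the highest control value. The means were 14.05 ± 0.036 and 14.87 ± 0.084 (SD, n = 3 each), so that Abcc3 rose 1.77-fold with soy (change 0.82, SE 0.095, 95% limits 0.60 and 1.05, adjusted p = 0.0242). The change was 0.85 within slide 1 and 0.92 within slide 3. The dimmer probe gave 9.24, 8.95 and 8.83 in control and 9.88, 9.69 and 9.67 in soy. These groups were apart too, and the difference of 1.67-fold did not pass (change 0.74, SE 0.13, adjusted p = 0.0819). Brighter minus dimmer probe shifted by 0.09 between diets (exact two-sided permutation p = 0.6). Over the 18 alternatives with separate probes the change of the brighter one stayed between 0.80 and 0.88, but it passed in 9 and did not pass in 9, and the mean of both probes passed (0.78, adjusted p = 0.0391). The brighter probe did not pass in any of the 6 fits without 1 array (adjusted p 0.0589 to 0.103). Nor did it pass with a normexp offset of 16 (adjusted p = 0.0710), the replicate block (adjusted p = 0.0784) or slide as a fixed block (adjusted p = 0.126).

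**Figure D2:**
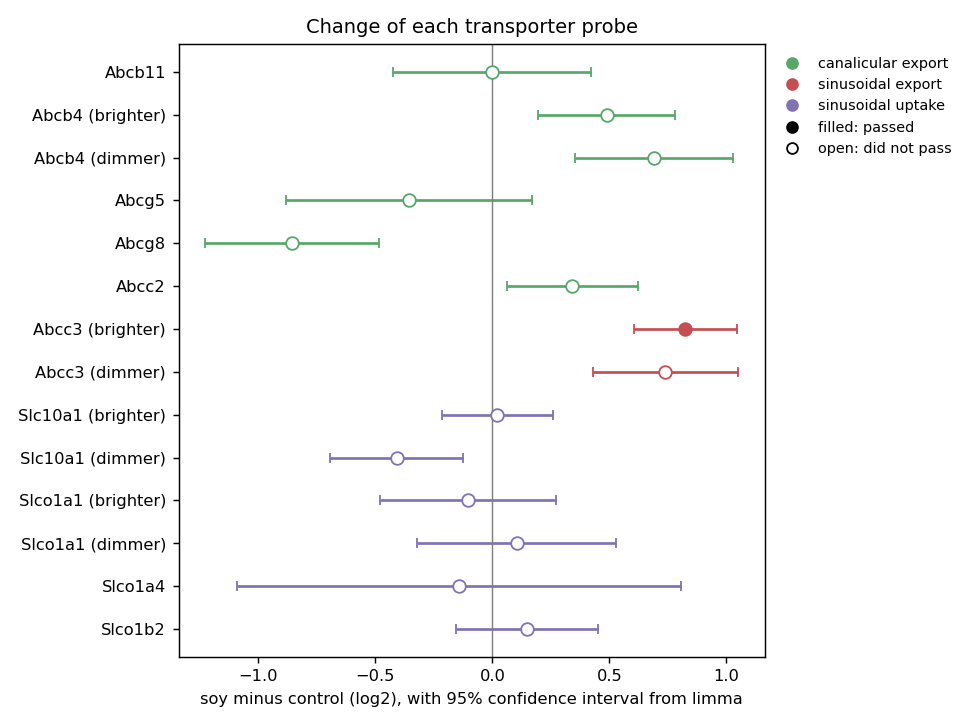
Log2 change (soy minus control, horizontal axis) of each of the 14 transporter probes with its 95% confidence interval from limma, coloured by role and filled where the probe passed. The brighter Abcc3 probe (0.60 to 1.05) is the filled one. Before adjustment the intervals of Abcg8 (-1.23 to -0.48), Abcc2 (0.06 to 0.62), both Abcb4 probes, both Abcc3 probes and the dimmer Slc10a1 probe (-0.69 to -0.13) leave out 0, and that of Abcb11 (-0.43 to 0.42) is centred near it.

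Slc10a1 encodes NTCP, the sodium-coupled carrier that brings conjugated bile salts into the hepatocyte. Its brighter probe, of transcript NM_011387, gave 18.54, 18.43 and 18.45 in control and 18.49, 18.60 and 18.38 in soy. The groups overlapped and the change of 0.02 lay between the 95% limits of -0.22 and 0.26 (SE 0.10, adjusted p = 0.959). The dimmer probe, of transcript NM_001177561, gave 16.08, 15.88 and 15.70 in control and 15.54, 15.40 and 15.48 in soy. There the soy values were all lower, by at least 0.15, and the 1.33-fold difference did not pass (change -0.41, SE 0.12, adjusted p = 0.253). Brighter minus dimmer probe was 2.46, 2.55 and 2.75 in control and 2.94, 3.21 and 2.89 in soy. The difference between the probes was thus larger on every soy array, by 0.43 on average, with the smallest p that an exact two-sided permutation test of 3 against 3 allows (p = 0.1).

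Slco1a1, Slco1a4 and Slco1b2 encode organic anion transporting polypeptides, which take up bile acids, hormone conjugates and drugs without sodium. All 3 genes lie on chromosome 6, where Slco1a1 and Slco1a4 are neighbours. The brighter Slco1a1 probe gave 13.76, 13.63 and 13.55 in control and 13.55, 13.24 and 13.85 in soy. Soy 2 was the lowest and soy 3 the highest array, so the groups overlapped (change -0.10, SE 0.16, adjusted p = 0.851). The dimmer Slco1a1 probe, from 13.44 to 13.59 in control and from 13.25 to 14.00 in soy, had a mean change of the opposite sign (0.10, SE 0.18, adjusted p = 0.871). The difference between the Slco1a1 probes moved by -0.21 with the groups apart (exact two-sided permutation p = 0.1).

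Slco1a4 was the most variable of the 10 between mice of 1 diet. Its log2 signals were 10.38, 11.53 and 9.99 in control and 11.08, 10.17 and 10.23 in soy. Control 2 was the highest array and control 3 the lowest, so that the control range covered all soy values. The change was -0.14 with 95% limits of -1.09 and 0.81 (SE 0.41, adjusted p = 0.925), and it was 0.12 within slide 1 and 0.24 within slide 3, opposite in sign to the pooled value. Slco1b2 gave 16.64, 16.89 and 16.66 in control and 17.09, 16.74 and 16.80 in soy. Soy 1 was the highest array, control 2 was the next, and the groups overlapped (change 0.15, SE 0.13, adjusted p = 0.716). The change was 0.043 without soy 1 and 0.23 without control 2. None of the 4 uptake carriers was apart between diets on its brighter probe, and their changes ran from -0.14 to 0.15. Whether a probe of 1 Slco1 gene also binds transcripts of its relatives was not tested. Slco1a5 and Slco1a6, the close relatives measured beside them, were not well above background on any array.

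**Figure D3:**
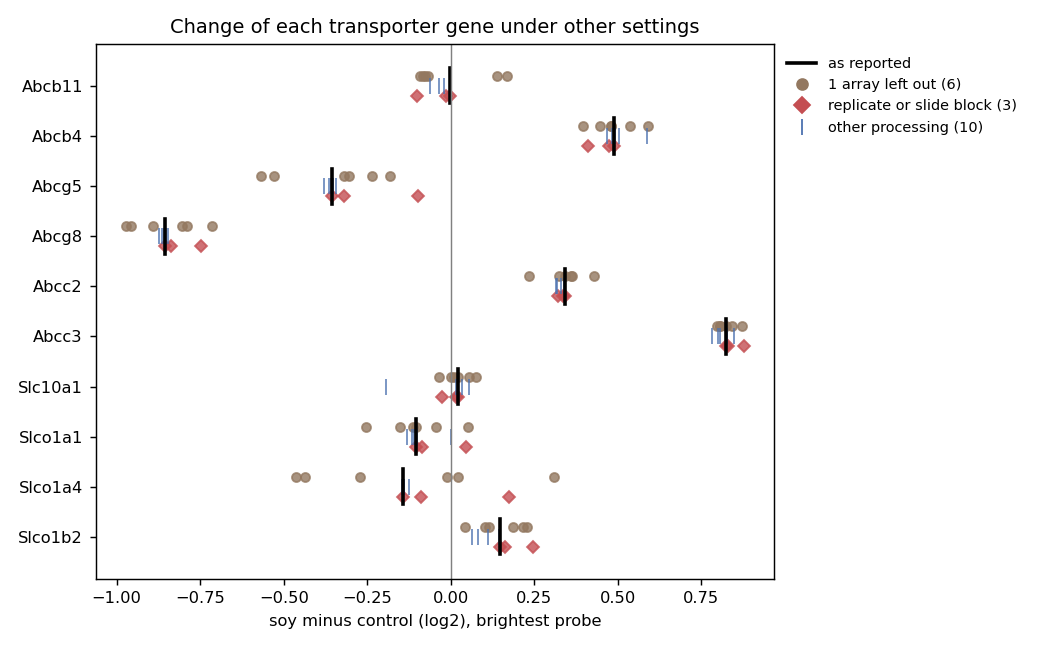
Log2 change (soy minus control) of each transporter on its brightest probe as reported (black bar) and in the 19 alternatives, of which 6 left out 1 array (circles), 3 held a replicate or slide block (diamonds) and 10 changed another step (thin bars). The thin bars include the mean of all probes of a gene, which for Abcc3 is the lowest value (0.78). Abcc3, Abcg8 and Abcb4 keep their sign throughout, whereas Abcb11, Slc10a1, Slco1a1 and Slco1a4 lie on both sides of 0.

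Of 24 other listed transporters, 12 exporters and 12 uptake carriers, 12 had a higher and 12 a lower mean in soy. Among these 24, 4 were well above background on no array. None passed by limma, 4 of 24 had an unadjusted p under 0.05, against 14.2% of all genes, and their median change was 0.01. Abcc4, which encodes the sinusoidal exporter MRP4, gave 7.99, 8.01 and 7.71 in control and 9.34, 8.47 and 8.70 in soy. Its soy arrays were all above its control arrays, a 1.91-fold difference that did not pass (change 0.93, SE 0.22, adjusted p = 0.155). Abcg2, the canalicular breast cancer resistance protein, was 1.48-fold higher without passing (change 0.56, SE 0.18, adjusted p = 0.281). Its groups all but touched, with control 3 at 14.8085 and soy 2 at 14.8087. The Abcg2 change was 0.93 within slide 1 and 0.34 within slide 3. Slc10a2 encodes the apical sodium-coupled bile acid carrier, known from ileum and bile duct. It gave 11.61, 11.39 and 11.98 in control and 10.92, 10.44 and 11.08 in soy, lower on every soy array without passing (change -0.85, SE 0.21, adjusted p = 0.168). The changes of Abcb1b (-0.40, adjusted p = 0.560), Slco3a1 (-0.43, adjusted p = 0.594) and Slco2b1 (-0.29, adjusted p = 0.530) lay within overlapping groups. Their size rested on single arrays, since without 1 array each they ran from -0.59 to -0.23, from -0.74 to -0.15 and from -0.45 to -0.15. Slco3a1 was also -0.70 within slide 1 and 0.25 within slide 3. Slc51b, a subunit of the basolateral organic solute transporter, was well above background on 3 control arrays and 1 soy array (change -0.47, adjusted p = 0.415), and its partner Slc51a on none.

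The membrane flippases, scaffold proteins and cholesterol carriers that serve these transporters (12 genes) had 6 higher and 6 lower means and none that passed, with a median change of -0.01. Atp8b1, the phosphatidylserine flippase of the canaliculus, differed by 0.01 (adjusted p = 0.991). Ezr (0.33, adjusted p = 0.350) and Myo5b (0.29, adjusted p = 0.324) were higher on all soy arrays, while Rdx, the radixin that anchors canalicular proteins to actin, overlapped (0.38, adjusted p = 0.423), as did Tmem30a (-0.21, adjusted p = 0.703). Without 1 array each, Rdx ran from 0.24 to 0.53 and Tmem30a from -0.30 to -0.051. Tmem30a was also 0.05 within slide 1 and -0.29 within slide 3.

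Of 14 nuclear receptors and other transcription factors listed as regulators of transporter genes, 1 passed, against 0.532% of all genes. Nr1i3, which encodes CAR, had a change of 0.85 on its brighter probe, which did not pass (SE 0.16, adjusted p = 0.0880), and rose on its dimmer probe (change 0.87, SE 0.12, adjusted p = 0.0427). The dimmer probe passed in 10 of 18 alternatives, with an adjusted p of up to 0.161 when 1 array was left out and 0.170 otherwise, and the brighter probe in 3. Nr1h4, which encodes FXR, gave 14.02, 14.34 and 14.27 in control and 14.68, 14.60 and 14.51 in soy. Its soy values were all higher, a 1.31-fold difference that did not pass (change 0.39, SE 0.12, adjusted p = 0.262). The oxysterol receptor Nr1h3 was apart without passing on its brighter probe (-0.15, adjusted p = 0.615) and overlapped on its dimmer one, with a change of the opposite sign (0.04, adjusted p = 0.893). The oxidant-response factor Nfe2l2 (0.25, adjusted p = 0.550, from 0.11 to 0.35 without 1 array each) was apart without passing, and Hnf4a (-0.25, adjusted p = 0.499) overlapped. Without 1 array each, Hnf4a ran from -0.32 to -0.16 and the brighter Nr1h3 probe from -0.18 to -0.093.

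**Figure D4:**
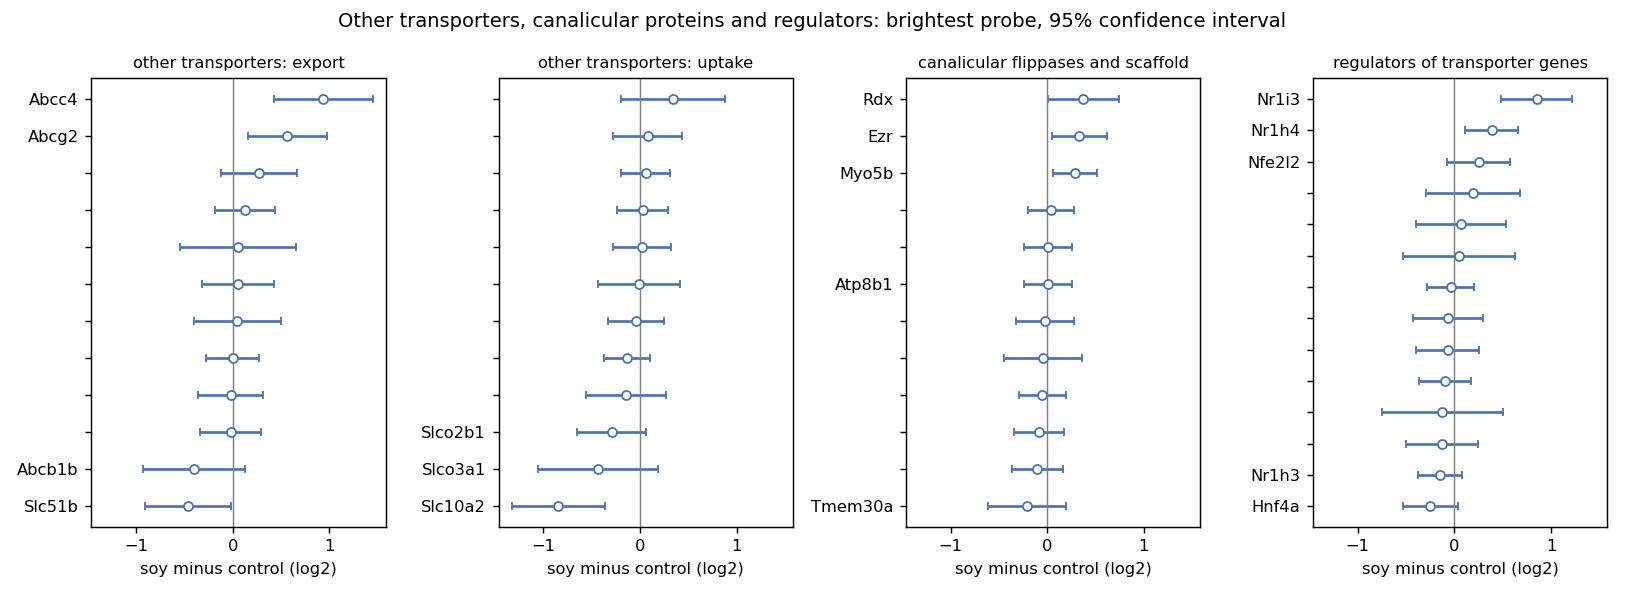
Log2 change (soy minus control, horizontal axis) of the genes of the 4 related lists, each on its brightest probe and labelled where the text gives its value, with the 95% confidence interval from limma. Most intervals span 0, and Abcc4 (0.93) and Slc10a2 (-0.85) lie at the ends of the other transporters.

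The tissue label was checked against cell type markers, none of which passed. All 8 hepatocyte markers were well above background, with albumin among them. Their summed normalized signal was 2185560, 2265750 and 2159140 in control and 2049700, 1895390 and 1906310 in soy (brightest gene Serpina1a), lower on every soy array, with 7 of 8 means lower and a median change of -0.25. The urea cycle genes Ass1 (-0.55, adjusted p = 0.174) and Cps1 (-0.47, adjusted p = 0.178) were lower without overlap, and Tat (-0.76, adjusted p = 0.324) and Fgb (-0.37, adjusted p = 0.439) overlapped. Of 8 cholangiocyte markers, 4 had a higher and 4 a lower mean, Epcam was above background nowhere, Krt7 and Cftr were so in control alone, and their sums were 4195, 3160 and 3240 in control and 4068, 3298 and 4422 in soy (brightest Spp1). These sums overlapped.

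The 6 endothelial cell markers summed to 42211, 42513 and 41929 in control and 43626, 49694 and 45655 in soy (brightest Clec4g), higher on every soy array, with 3 means higher and 3 lower. Clec4g (0.20, adjusted p = 0.546) and Lyve1 (-0.67, adjusted p = 0.654) had mean changes of opposite sign. The size of the Lyve1 change rested on control 1. Lyve1 gave 11.16, 9.23 and 9.32 in control and 9.49, 8.89 and 9.35 in soy, and the groups overlapped. With 1 array left out its change was as small as -0.037, and it was -0.71 within slide 1 and 0.03 within slide 3. Clec4g ran from 0.11 to 0.25 without 1 array each. The 6 Kupffer cell markers summed to 23709, 37740 and 45554 in control and 32744, 39571 and 50515 in soy (brightest Cd5l), with 5 means higher and 1 lower and control 1 the lowest array. The 6 stellate cell markers summed to 40619, 35874 and 39481 in control and 34833, 34858 and 37872 in soy (brightest Dcn), with 1 mean higher and 5 lower. Among them the collagen gene Col1a1 had lower values on every soy array on its brighter probe (-0.997, adjusted p = 0.318) and overlapped on its dimmer probe (-0.86, adjusted p = 0.394). Without 1 array each, the brighter Col1a1 probe ran from -1.30 to -0.61 and the dimmer one from -1.15 to -0.46. The brighter one was -1.38 within slide 1 and -0.46 within slide 3. All members of these 3 lists were well above background throughout at least 1 diet. The hepatocyte and stellate marker means were mostly lower in soy, as Abcg8 was, whereas Abcc3, Abcb4 and Abcc2 were higher. The Kupffer cell marker means were mostly higher, with sums that overlapped between diets. The median changes were -0.25, -0.12 and 0.24 for these lists and 0.07 for the endothelial list. The part of these marker differences in those of the transporters was not tested.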

How the data were processed

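Raw scanner output of 6 arrays was analysed. Per the file headers, the authors deposited Feature Extraction 11.5.1.1 output with uncorrected, unscaled median intensities of spots and of the local background around them, a processed intensity, and flags for detection and for outlier spots. A table of quantile-normalized log2 values was deposited too (array medians 7.33 to 7.34). It differed by 0.0705 at most from the values computed here with outlier spots kept. The methods name raw median signals, limma and Benjamini-Hochberg, and no background correction. Here the medians were corrected by normexp (offset 50), control spots removed, arrays quantile normalized, log2 transformed, outlier spots left out and spots of a probe averaged. Soy was compared with control in limma 3.58.1 (lmFit and eBayes, R 4.3.3) over 56605 probes, and the fit was tested on simulated data. Tables and plots used Python 3.11.15, pandas 2.3.3 and matplotlib 3.10.9.

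Symbols came from RefSeq accessions through a GRCm38.p6 table (58.3% of probes), since the arrays were designed on another build. Positions are given for RefSeq windows only. The transporters and all lists were chosen with earlier results of these data known. By rule, the text names each transporter on every probe (a gene's value being its brightest probe), and from each other list the genes that passed plus up to 4 with the largest change among those well above background in at least 1 diet, with Nr1h4, Nr1h3, Nr1i3, Nfe2l2 and Atp8b1 in any case. Values of a few listed genes are not reported here. For the cell type lists the counts, sums and brightest gene are given. Slc51a, Slco1a5, Slco1a6, Epcam, Cyp2c69 and the markers named by value were named after their values were seen. The 19 alternatives were no background correction, offset 16, the processed signal (set to a common 75th percentile), a 75th-percentile shift in place of quantiles, cyclic loess, a restriction to probes well above background, outlier spots kept, trend and robust eBayes, the replicate number or the slide (fixed or random) as a block, the deposited log2 values, the mean of a gene's probes, and each array left out. The count was also taken by adjusted p alone.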

Additional observations from a re-analysis of the deposited data

How the results depend on the processing

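Against 122 genes (78 higher and 44 lower, 63.9% higher), 48 passed with an offset of 16, 5892 with the processed signal (90.5% higher), 313 with only probes well above background, 184 with trend and robust eBayes, 51 with the replicate block and 16 with slide as a fixed block (43.8% higher). Without 1 array each, 18 to 130 genes passed (63, 45 and 130 when control 1, 2 or 3 was dropped, and 30, 18 and 19 when soy 1, 2 or 3 was, with 47.4% higher without soy 3). The median change of all genes moved from -0.01 to 0.11 with the 75th-percentile shift, and none of the 10 transporters changed sign there. The causes were not tested.

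Of the transporters, 1 passed in the main analysis, 3 (Abcc3, Abcg8 and the dimmer Abcb4 probe) with the processed signal, 2 (Abcc3 and Abcg8) with only probes well above background, and 0 with an offset of 16, with the replicate block, with slide as a fixed block and in all 6 fits without 1 array (0 to 0). Under these limma fits Abcc3 kept its direction. Abcb4, Abcg5, Abcg8, Abcc2, Abcc3 and Slco1b2 kept their sign in all 19 alternatives. With slide as a fixed block the changes of Slc10a1 (-0.025), Slco1a1 (0.044) and Slco1a4 (0.17) reversed, and with the mean of a gene's probes those of Slc10a1 (-0.19) and Slco1a1 (5.18e-05). Without 1 array each, Abcb11 lay between -0.092 and 0.17, Slc10a1 between -0.037 and 0.076, Slco1a1 between -0.25 and 0.052 and Slco1a4 between -0.46 and 0.31.

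Replicate numbers were shared between the diets, and deviations of same-numbered arrays correlated at 0.12, -0.06 and 0.10. Soy 1 correlated best with control 1 and soy 3 with control 3, but these pairs also shared a slide. Soy 2 correlated best with control 3. The check cannot tell pairing from slide, so it does not decide whether the numbers pair the mice. No pairing was used in the main fit. With the replicate block the change of Abcc3 was 0.82 (adjusted p = 0.0784). Signal over background set no limit on the 14 transporter probes, and 3 arrays per diet and the uneven slides did.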

Other observations

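Slco1a1 is known as a male-predominant gene in mouse liver, so lists of sex-biased liver genes were read beside it. Of 10 male-biased genes, 5 had a higher and 5 a lower mean in soy, none passed by limma and 2 had an unadjusted p under 0.05, against 14.2% of all genes, with a median change of 0.03. Selenbp2 (-0.49, adjusted p = 0.134) and Ugt2b1 (-0.44, adjusted p = 0.284) were lower on every soy array, and Hsd3b5 (-0.39, adjusted p = 0.474) and Cyp2d9 (0.28, adjusted p = 0.538) overlapped. Without 1 array each, Hsd3b5 ran from -0.52 to -0.19 and Cyp2d9 from 0.15 to 0.42. Cyp2d9 was also 0.61 within slide 1 and -0.12 within slide 3. Of 10 female-biased genes, 4 had a higher and 6 a lower mean, none passed by limma and 3 had an unadjusted p under 0.05, with a median change of -0.04. Acot3, an acyl-CoA thioesterase, gave 7.18, 7.81 and 8.65 in control and 10.99, 9.78 and 9.99 in soy, without overlap (change 2.38, adjusted p = 0.0760). Cyp3a41a (0.80, adjusted p = 0.171) was higher and Cyp2c69 (-0.46, adjusted p = 0.255) lower on every soy array, and Cyp2b9 (-1.20, adjusted p = 0.584) overlapped, with -1.64 within slide 1 and 0.57 within slide 3 and a range of -2.05 to -0.42 without 1 array each. Cyp2b13, Hao2 and Sult3a1 were not well above background on any array.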
